A study of Drosophila melanogaster with 4 samples.

Results

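Chromosome arm 2L, the left arm of the second chromosome of Drosophila melanogaster, carried 777 of the 5003 regions (15.5%) that the authors' combined list types as enriched for the boundary protein BEAF. The members are all enriched regions of that list with a position on 2L; the same filter left 656 regions of ChIP replicate 1 and 670 of ChIP replicate 2. The arm is 23011544 bp long in FlyBase release 5, the build named in the file headers and used for every coordinate here, and it makes up 19.3% of the length of the 5 large arms (2L, X, 2R, 3L and 3R). Positions count from the distal end, next to the telomere, towards the centromere.

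The study has 4 samples, all from whole embryos of the wild-type strain Oregon-R-modENCODE at 14 to 16 h of development. There are 2 samples of DNA from chromatin immunoprecipitated with a rabbit polyclonal antibody (BEAF-HB, raised against residues 88 to 282 of BEAF) and 2 samples of input DNA. Titles were used to group them, because the free-text descriptions of 1 ChIP and 1 input sample read as the other kind; the labels name the second target isoform both BEAF42B and BEAF32B. The input samples have no region list here, read depth is not in the files, and nothing states whether the replicates came from separate collections. A whole embryo mixes many cell types, so a region cannot be assigned to any of them.

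BEAF, the boundary element-associated factor, was first isolated through its binding to scs', a boundary element beside a pair of heat-shock genes. Its isoforms come from a single gene and differ in the DNA-binding finger at the N-terminus, while a shared C-terminal part lets the protein form multimers. It is known from sites close to the promoters of broadly expressed genes, often where neighbouring genes point away from each other, and from the borders of chromatin domains. Such sites contain clusters of the short motif CGATA. No sequence or annotation of release 5 was used here, so regions are given by position, with no gene names and no motif search.

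BEAF regions were sparser on 2L than on the other 4 large arms. In the combined list 2L had 33.8 regions per Mb (exact 95% Poisson interval 31.4 to 36.2), against 42.0 per Mb for the 4028 regions of X, 2R, 3L and 3R together. This is 0.805 times the density of the other arms (two-sided exact binomial test of the arm counts against arm length, p = 1.62e-08). Replicate 1 gave 28.5 per Mb on 2L against 35.0 on the other 4 arms, a ratio of 0.814 (same exact test, p = 9.7e-07). Replicate 2 gave 29.1 against 36.7, a ratio of 0.794 (exact test, p = 2.41e-08). The interval of 2L overlapped that of 3L, the next sparsest arm (36.3 per Mb, 33.9 to 38.7), and lay below those of 3R, 2R and X. Regions took up 8.68% of 2L in the combined list, against 10.8% of the other 4 arms. The test takes regions as independent draws at an even density. Counts in the 23 windows of 1 Mb on 2L had a variance-to-mean ratio of 3.98, where such draws would give about 1. The ratio cannot tell dependence of neighbours from uneven density along the arm. These p-values, and those of the same test in the next paragraph, are therefore too small. The arm was also chosen with earlier results known, and the other 4 arms themselves ranged from 36.3 to 48.2 per Mb. The p-values are thus not taken as evidence that 2L differs. The same excess variance makes the Poisson intervals too narrow, and they do not show that 2L lies below 3R.

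The lower density was also measured with the sparse interval between 14 and 18 Mb left out. On the remainder, 2L had 694 regions, or 36.5 per Mb, and a ratio of 0.870 to the other arms (exact binomial test, p = 0.00065). The interval was chosen with its counts known, and no sparse interval of the other arms was left out. This removal raises the ratio by itself, so no conclusion is drawn from that p-value. When the lower-scoring 50% of the combined list was dropped the ratio was 0.874 (exact test, p = 0.0122), and with the lower 50% of each replicate list dropped it was 0.858 and 0.858 (exact test, p = 0.00956 and 0.00804). The authors gave every region a score of unstated scale, which serves here only to rank regions within a list. A score above the median of the whole combined list was found for 416 of the 777 regions of 2L (53.5%), against 50.0% of all 5003 and 49.3% on the other 4 large arms. The share on 2L was 52.6% in replicate 1 and 53.6% in replicate 2, each set against its own list, and the difference from the other arms was not tested.

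Density changed along the arm by more than the replicates differed. In 23 windows of 1 Mb the combined count had a median of 32 and ran between 10 and 61. The fullest window was 10000001 to 11000000, with 61 regions in the combined list, 56 in replicate 1 and 53 in replicate 2. Next came 8000001 to 9000000 with 52 combined regions, the distal window 1 to 1000000 with 48, and 19000001 to 20000000 with 47. The 2 sparsest windows were 14000001 to 15000000, with 10 combined regions, 6 in replicate 1 and 5 in replicate 2, and 17000001 to 18000000, with 14, 12 and 13. Every other window held at least 23 combined regions. Replicates 1 and 2 gave nearly the same order of windows (Spearman's rho = 0.98 across the 23 windows of these 2 lists).

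**Figure D1:**
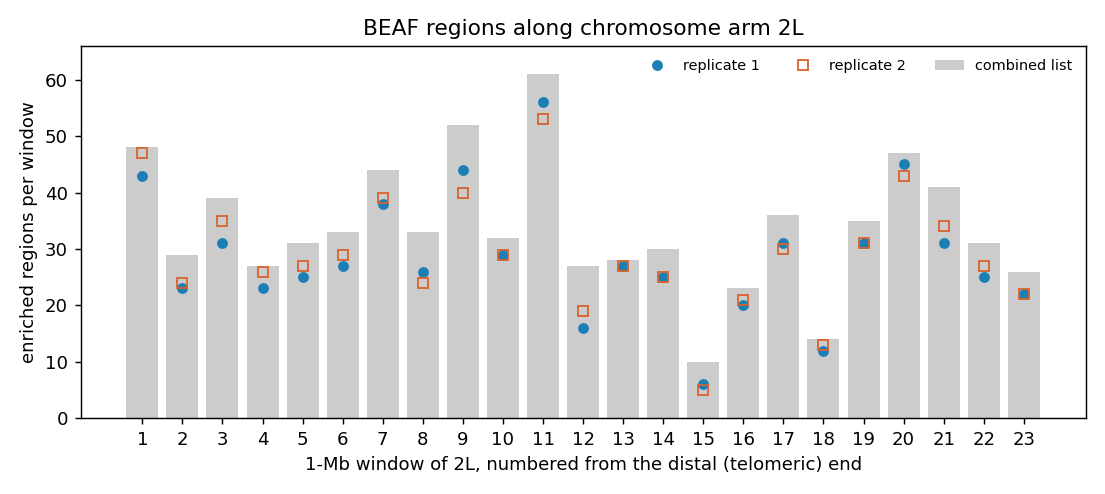
Number of enriched regions (vertical axis) in each 1-Mb window of 2L, numbered from the distal end (horizontal axis); bars are the combined list, filled circles replicate 1 and open squares replicate 2, with the last window 11544 bp longer. Window 11 is the fullest in all 3 lists (61, 56 and 53 regions), and windows 15 and 18 are the emptiest (10, 6 and 5, and 14, 12 and 13).

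Much of the fullest window's count lay in 3 adjacent bins of 100 kb. The bin 10200001 to 10300000 had 14 combined regions, 14 in replicate 1 and 13 in replicate 2, the highest combined count of the 230 complete bins of the arm. The next bins on its proximal side, 10300001 to 10400000 and 10400001 to 10500000, had 12 each, and so did 19000001 to 19100000. At the other extreme 41 of the 230 bins held no combined region, and those 41 were also empty in both replicates. Nearly all replicate regions of 2L overlap a combined region (653 of 656 in replicate 1, 666 of 670 in replicate 2). The replicates are thus no independent check of the empty bins. Of these empty bins 14 lay among the 40 bins between 14 and 18 Mb.

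Between 14 and 18 Mb the arm carried 83 regions, a density of 20.8 per Mb with an exact 95% Poisson interval of 16.5 to 25.7. The rest of 2L had 36.5 per Mb (33.8 to 39.3). In both replicates the interval held 69 regions, or 17.3 per Mb, against 30.9 per Mb on the rest of the arm in replicate 1 and 31.6 in replicate 2. The ratio of the interval to the rest was 0.568 in the combined list, 0.559 in replicate 1 and 0.546 in replicate 2. These limits were chosen with the counts known, so the difference is a description without a test. The median width of the regions that were present was 2393 bp, against 2385 bp on the rest of the arm. A score above the list median was found for 51.8% of them, against 53.7% elsewhere on 2L, and 63 of the 83 (75.9%, exact 95% binomial interval 65.3 to 84.6) were in both replicate lists, against 550 of 694 (79.3%, 76.0 to 82.2) on the rest of 2L and 77.8% of all 5003 regions.

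The interval is broken up by long stretches without any enriched region. Stretches of at least 100 kb, measured between the edges of neighbouring regions, took up 65.0% of its length, against 35.7% of the rest of 2L. Of the 57 such stretches on the arm, 12 lay wholly between 14 and 18 Mb. The longest ran from 15772399 to 16250455 (478 kb), the next from 16911147 to 17366977 (456 kb) and the third from 14654539 to 15008653 (354 kb). Shorter ones in the interval were 17771009 to 17962159 (191 kb), 14024755 to 14215733 (191 kb), 15497365 to 15682511 (185 kb) and 15273569 to 15415511 (142 kb). The remaining 5 measured 103 to 133 kb.

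Replicate lists placed the edges of the longest stretch almost exactly where the combined list did. It measured 478140 bp in replicate 1 (15772353 to 16250492) and 478040 bp in replicate 2 (15772422 to 16250461). It began after a region of score 2.11 and ended before one of score 1.72, both found in both replicates. The third stretch had equally firm edges, at 354181 bp in replicate 1 and 354143 bp in replicate 2.

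The second stretch depended on weak regions at its edges. Its distal edge was 16910032 to 16911146 (score 0.356), a region found in neither replicate, and its proximal edge was 17366978 to 17368708 (score 0.0848), found in replicate 1. In replicate 1 the stretch widened to 16889592 to 17367067, or 477476 bp. In replicate 2 it widened to 16889601 to 17382857, or 493257 bp, and was the longest stretch of the arm in that list. The order of the 2 longest stretches therefore differed between lists.

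Other stretches in the interval also rested on regions that the replicates lack. The single region 14473990 to 14475348 (score 0.107, in neither replicate) separates stretches of 107 kb and 106 kb in the combined list. Both replicates also lack 14366186 to 14367326 (score 0.347), the region at the distal edge of the first of these stretches. Without these regions both replicates had a single free stretch there, of 224832 bp in replicate 1 and 224848 bp in replicate 2. In the same way the combined stretch of 14024755 to 14215733 was 308398 bp long in replicate 1, which extended it in the proximal direction, and 291149 bp long in replicate 2, which extended it distally.

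**Figure D2:**
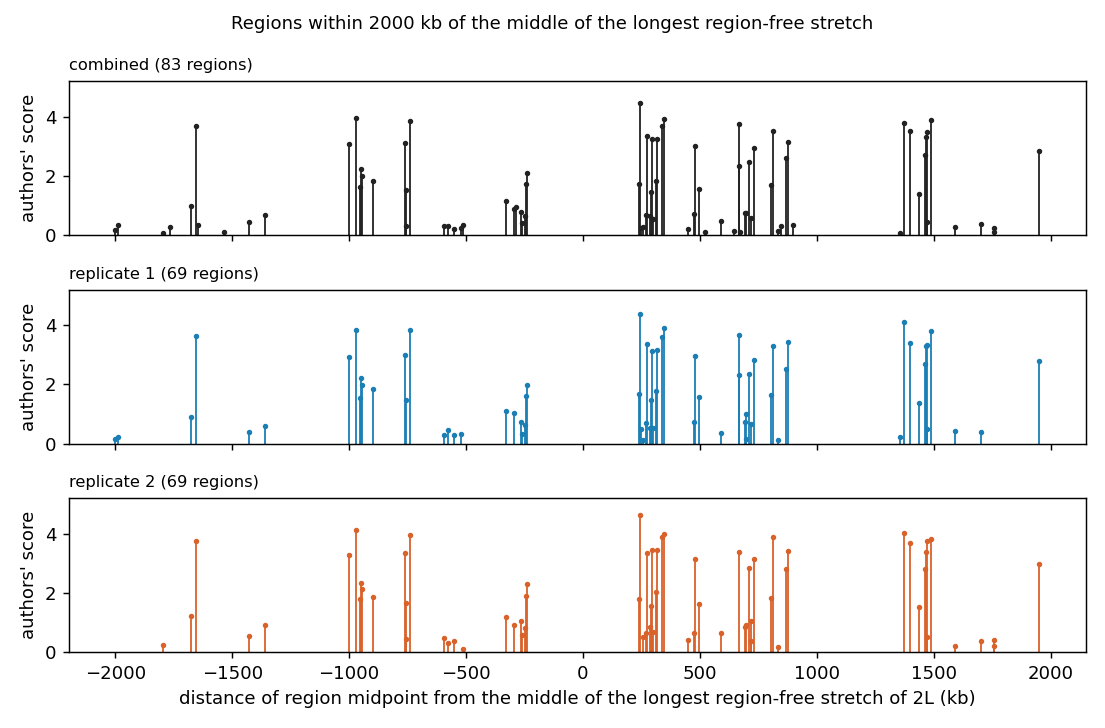
Authors' score (vertical axis) of each region within 2000 kb of the middle of the longest region-free stretch of 2L, by distance of the region's midpoint (horizontal axis, kb; negative is distal), for the combined list (83 regions) and replicates 1 and 2 (69 regions each). The empty stretch at the centre (478 kb in the combined list) and the next long one on its proximal side (456 kb) appear in all 3 panels, and the high-scoring groups between them stand at the same distances.

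The 10 combined regions of the emptiest window, 14000001 to 15000000, were mostly weak. The highest scored 3.68 (14353848 to 14356338) and the next 0.992 (14332908 to 14335154), both found in both replicates. Scores of the other 8 were between 0.0788 and 0.698, and 2 of these 8 were in both replicates, 14581152 to 14583180 (0.435) and 14652400 to 14654538 (0.698). Of the remaining 6, 3 were in 1 replicate and 3 in neither.

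High-scoring regions occurred in the groups between the long stretches. The group that follows the 478-kb stretch, 16250456 to 16358118, held 14 regions in 108 kb, of which 13 were in both replicates. Its highest score, 4.46 at 16256196 to 16259190, ranked 5 on 2L and belonged to the second region after the stretch. After the 456-kb stretch came 17366978 to 17604306, 10 regions with scores up to 3.87 (17499824 to 17502490), 9 of them in both replicates. A region of score 2.85 at 17962160 to 17964634 stood alone between stretches of 191 kb and 160 kb, and was found in both replicates.

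Long empty stretches also occurred on 2L outside 14 to 18 Mb, and on the other large arms. The 57 stretches together measured 9.39 Mb, or 40.8% of the arm, against 29.1% of the other 4 large arms (25.9% of X, 24.0% of 2R, 31.7% of 3L and 33.4% of 3R). In replicate 1 the share was 48.9% on 2L against 35.4% on the other arms, and in replicate 2 it was 48.2% against 34.1%. With 14 to 18 Mb left out, the share of 2L in the combined list was 35.7%, closer to that of 3R. The longer arm 3R had more such stretches than 2L in each list. It had 61 (9.31 Mb) in the combined list and 66 in each replicate, against 63 on 2L in replicate 1 and 62 in replicate 2. Outside 14 to 18 Mb the longest were 4466387 to 4809807 (343 kb), 18159847 to 18442425 (283 kb), 11529089 to 11807799 (279 kb), 13554667 to 13769793 (215 kb) and 603487 to 814707 (211 kb). Of the stretches of at least 300 kb, 2L had 4 in the combined list, X and 3L had 3 each, 2R had 1 and 3R had none. In replicate 1 there were 5 on 2L and 5 on X, and in replicate 2 there were 4 on 2L and 4 on X. At 200 kb or more, 2L had 10 in the combined list and 3L also had 10. The difference between the arms in these shares was not tested. On 2L the number of regions per Mb was also the lowest of the 5 arms, and its part in these shares was not tested.

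Neither replicate had a whole region inside 55 of the 57 stretches. Since 653 of the 656 replicate 1 regions and 666 of the 670 replicate 2 regions overlap a combined region, this is not independent of the combined list. The exceptions were 13022331 to 13163865, where replicate 1 had a region at 13144736 to 13146180, and 13906119 to 14010679, where replicate 2 had one at 13922942 to 13924540. At both places the combined list has a region typed as depleted.

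Regions next to a long stretch had lower scores than the arm as a whole. The 110 regions that border a stretch of at least 100 kb had a median score of 0.556, against 1.07 for all 777, and a median width of 2127 bp, against 2387 bp. Both replicates held 74 of the 110 (67.3%, exact 95% binomial interval 57.7 to 75.9), against 613 of 777 (78.9%, 75.9 to 81.7) on the arm and 77.8% of the whole combined list. The 34 regions at least 50 kb from both neighbours had a median score of 0.453. High scores occurred there too: 7883998 to 7887402 scored 4.44, 20348934 to 20351666 scored 4.27 and 12545434 to 12548096 scored 4.09. None of these comparisons was tested.

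**Figure D3:**
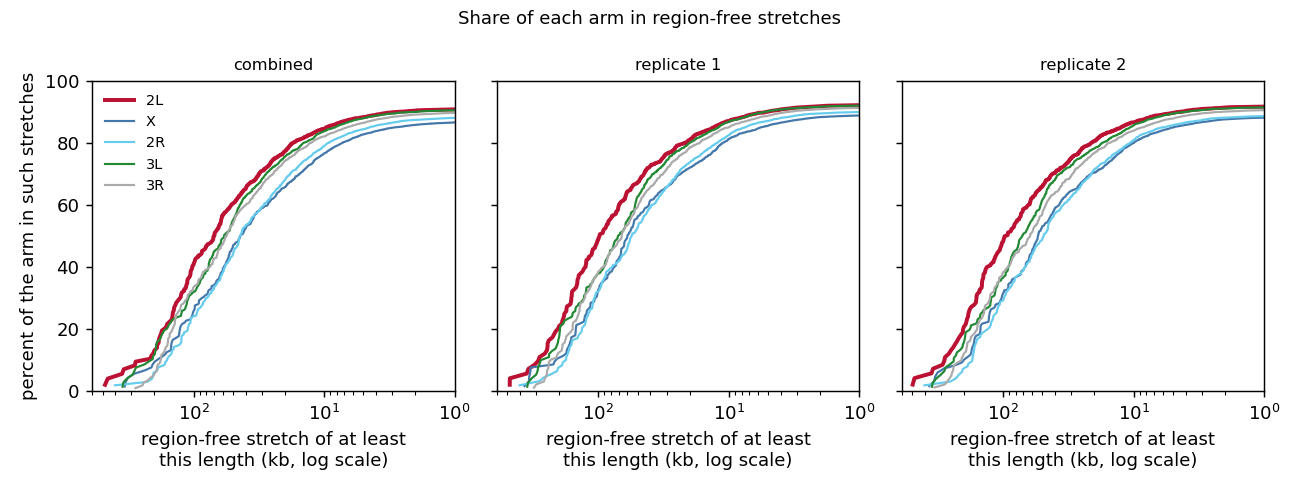
Percent of each large arm (vertical axis) that lies in region-free stretches at least as long as the value on the horizontal axis (kb, log scale, falling to the right), for 2L and X, 2R, 3L and 3R in each list. At 100 kb the curve of 2L stands at 40.8, 48.9 and 48.2% in the combined list, replicate 1 and replicate 2, above the other 4 arms in each panel.

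Gaps between neighbouring regions on 2L covered a wide range. The free distance between edges had a median of 8496 bp in the combined list, with quartiles of 2554 and 27594 bp, and medians of 9250 bp in replicate 1 and 9180 bp in replicate 2. Of 776 gaps, 160 (20.6%) were under 2 kb and 143 (18.4%) between 2 and 5 kb, and these 303 gaps together held 3.00% of the free sequence. Middle distances also occurred, with 116 gaps (14.9%) of 5 to 10 kb, 112 (14.4%) of 10 to 20 kb, 123 (15.9%) of 20 to 50 kb and 65 (8.38%) of 50 to 100 kb. The 57 gaps of at least 100 kb were 7.35% of all gaps (exact 95% binomial interval 5.61 to 9.41), against 4.37% (3.76 to 5.05) on the other 4 arms, and held 44.8% of the free bases. Gaps under 20 kb were 68.4% of those on 2L and 72.7% of those on the other arms.

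Dense runs, here 5 or more regions with no gap above 5000 bp, numbered 19 on 2L and held 111 regions (14.3% of the arm's regions in 2.11% of its length), against 11.5% of the regions of the other 4 arms. In replicate 1 the shares were 8.54% against 7.65%, with 10 runs on 2L, and in replicate 2 they were 11.8% against 8.66%, with 14 runs. The share on X alone was above that on 2L in each list, at 15.9% in the combined list, 11.7% in replicate 1 and 12.2% in replicate 2. None of the 19 lay between 14 and 18 Mb, which held 83 of the 777 regions, and nothing is read from that absence. Regions in runs were found in both replicates in 94 of 111 cases (84.7%, exact 95% binomial interval 76.6 to 90.8), an interval that holds the 78.9% of all 2L regions and the 77.8% of the whole list, and their median score was 1.13, against 1.07 for the arm.

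The run with the most regions, at 1141882 to 1185088, had 9 regions in 43.2 kb with gaps of 283 to 4811 bp. Its highest score was 3.96 at 1168724 to 1174238, a region 5515 bp wide that scored 3.83 in replicate 1 and 4.16 in replicate 2. Around it stood 8 weaker regions, with scores between 0.112 and 2.08. Of the 9, 8 were in both replicates and 1 (1165686 to 1167338) in replicate 2.

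The run at 10395190 to 10440464 had 8 regions in 45.3 kb, the widest span of the 19. Scores ran between 0.334 and 3.61 with a median of 2.15, and the 2 highest were 10412230 to 10415170 (3.61) and 10434574 to 10440464 (3.52). Together with the runs at 10245820 to 10271074 (5 regions) and 10290920 to 10322834 (6 regions) it lay in the fullest part of the arm.

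Both highest-scoring regions of 2L belonged to runs of 6. The region 6966082 to 6969526, with the highest score of the arm (4.78), closed the run 6941904 to 6969526 and had 56651 bp free on its proximal side. The region 8363430 to 8367652 (also 4.78) was second in the run 8361388 to 8385590, only 43 bp from its distal neighbour 8361388 to 8363386 (score 0.346). Replicate 2 listed these neighbours as 1 region, 8361367 to 8367662, while replicate 1 kept them apart. A run of 6 at 4441192 to 4466386, with scores of 0.704 to 2.57, ended at the 343-kb stretch.

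**Figure D4:**
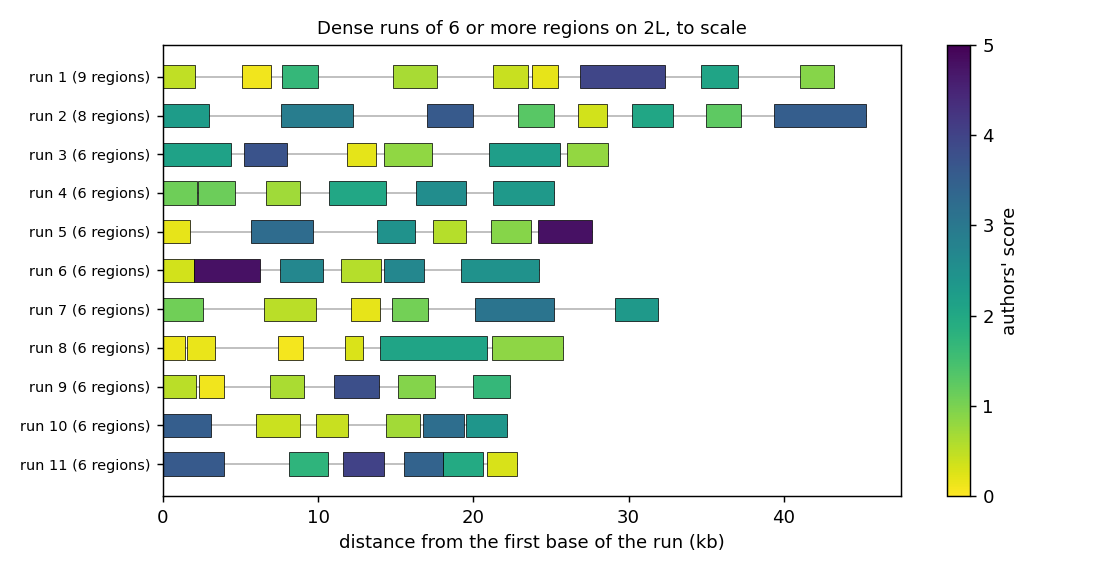
The 11 dense runs of 6 or more regions on 2L, drawn to scale from the first base of each run (horizontal axis, kb), ordered by number of regions and then by position; each box is a region of the combined list, coloured by the authors' score. Run 1 spans 43.2 kb with 9 regions and run 2 spans 45.3 kb with 8, and high-scoring boxes stand beside low-scoring ones within a run.

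Scores of direct neighbours showed little relation. Across the 776 neighbouring pairs of the combined list Spearman's rho of the scores was 0.05, and it was -0.02 in replicate 1 and -0.01 in replicate 2. These pairs share a library and overlap in their members, so the values are descriptions.

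The 20 highest-scoring regions of 2L were all in both replicate lists. So were all 195 regions of 2L in the highest score quartile and 99.8% of that quartile over the whole list. Their scores in the combined list were between 4.12 and 4.78, their widths between 2631 and 6787 bp with a median of 3073 bp. In replicate 1 they ranked no lower than 216 of 4169 and in replicate 2 no lower than 193 of 4349. By position 12 of the 20 lay before 14 Mb, 1 between 14 and 18 Mb and 7 beyond. All 777 regions of 2L were split 514, 83 and 180 over the same parts, and nothing is read from the split of the 20.

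After the pair above 4.7, the next by score was 19507370 to 19510016, with 4.61 in the combined list, 4.52 in replicate 1 and 4.75 in replicate 2. It was followed by 5277194 to 5280282 (4.54, 4.41 and 4.78) and 16256196 to 16259190 (4.46, 4.39 and 4.62). The region 6722020 to 6725088 had scores of 4.46, 4.33 and 4.64, and 7883998 to 7887402 had 4.44, 4.39 and 4.55. Of the 20, 4 lay between 19 and 20 Mb: 19130678 to 19135288 (4.22), 19429306 to 19431936 (4.32), 19491924 to 19495000 (4.30) and the region at 19507370. A free stretch of 177 kb lay between the first of these and the others. The window from 19 to 20 Mb held 47 of the 777 regions of 2L. Ranks differed between the replicates for some of the 20: 19130678 to 19135288 ranked 199 in replicate 1 and 63 in replicate 2.

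Agreement of the replicates on 2L was close to that of the whole series. Of the 777 combined regions, 613 (78.9%) overlapped an enriched region in both replicate lists by at least 1 bp, against 77.8% of all 5003. A further 81 (10.4%) were in 1 replicate and 83 (10.7%) in neither, against 10.1% in neither for the whole list. From the replicates' side, 624 of the 656 replicate 1 regions (95.1%) overlapped replicate 2, against 94.9% over the whole list, and 615 of the 670 replicate 2 regions (91.8%) overlapped replicate 1, against 90.0%. The combined list was made from these replicates in a way not given in the sources used here, so its agreement with them is no independent check.

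Sharing followed the score on 2L as over the whole list. All 195 regions of 2L in the highest quartile of the combined list were in both replicates (lower limit of the exact 95% binomial interval 98.1%), against 99.8% of that quartile over the whole list. In the next quartile 220 of 221 were (99.5%), against 98.8%. In the lowest quartile 59 of 192 were (30.7%, 24.3 to 37.8), against 32.5%. Among 593 regions matched one to one, the median distance of the midpoints was 27.5 bp, and its 90th percentile 145 bp. Scores of the 2 replicates had a Spearman's rho of 0.99 over these pairs and widths one of 0.92, both as descriptions over regions of 1 arm.

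Of regions listed in neither replicate the highest-scoring was 15726478 to 15727686 (0.957), in the group just before the 478-kb stretch. The next were 21552598 to 21554504 (0.732), 347614 to 348816 (0.546), 21393274 to 21394286 (0.481) and 22118240 to 22119266 (0.449). Apart from the second, which was 1907 bp wide, they measured 1013 to 1209 bp.

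Regions of 2L had a median width of 2387 bp, with quartiles of 1917 and 2875 bp, against 2341 bp on the other 4 large arms. Replicate 1 gave 2401 against 2388 bp and replicate 2 gave 2442 against 2413 bp, and these differences were not tested. Higher-scoring regions were wider. Regions of 2L in the highest score quartile of the combined list had a median width of 2865 bp, against 1687 bp for the lowest quartile. Over the 777 regions, which share their libraries, Spearman's rho of score and width was 0.79. Replicate 2 regions were the wider in 77.6% of the one-to-one pairs, by a median of 71 bp over all pairs.

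Regions over 5000 bp were 26 of 777 (3.35%) on 2L, against 4.10% of the whole list. All 26 were in both replicates, as were 77.8% of all 5003 regions of any width. That share was not computed for the wide regions of the whole list. The widest was 2191110 to 2199770 (8661 bp, score 1.96), a single region of 8409 bp in replicate 1 and split in replicate 2. The next along the arm among the 10 widest were 2747680 to 2755380 (7701 bp, 1.32) and 2764826 to 2771198 (6373 bp, 1.86). Then came 5976372 to 5983734 (7363 bp, 3.74), 10338272 to 10345344 (7073 bp, 2.57) and 22465898 to 22472882 (6985 bp, 1.98), the last bordering a free stretch of 176 kb. The remaining 4 of the 10 widest began at 10245820, 12001460, 9892246 and 16726774 and measured 6331 to 6979 bp. Only 9892246 to 9899032, with a score of 4.14, was also among the 20 highest scores of the arm. In all, 16 regions of 2L spanned several regions of a replicate, and 8 of them were over 5000 bp wide.

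**Figure D5:**
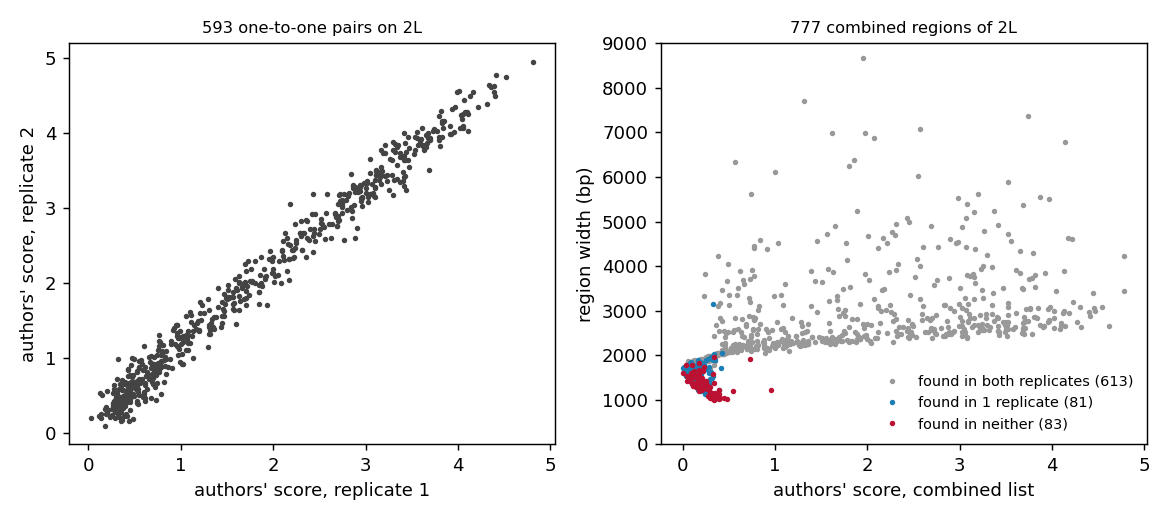
Left, authors' scores of the 593 one-to-one pairs of 2L regions in replicate 1 (horizontal axis) and replicate 2 (vertical axis), 1 point a pair. Right, score (horizontal axis) and width in bp (vertical axis) of the 777 combined regions, coloured by whether both replicates (613), 1 (81) or neither (83) hold them; regions found in neither lie at scores below 1 and widths below 2000 bp.

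Some neighbours were separated by very few bases. The closest pair, 19047818 to 19050346 (score 3.42) and 19050348 to 19052956 (1.96), had 1 bp between them. In replicate 2 a single region, 19047756 to 19052947, covered both, while replicate 1 had 2 regions there, the first of them (19047863 to 19050357) reaching a few bases into the second combined region. Next were 9911210 to 9914082 and 9914110 to 9916376 (27 bp apart), and 13218472 to 13221346 and 13221386 to 13223922 (39 bp). Gaps of 43 bp separated the pair at 8361388 described above and the pair 10207412 to 10209578 and 10209622 to 10211602. Such pairs count as separate regions here, and a caller that joined them would return fewer and wider ones.

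Regions reached close to both ends of the assembled arm. The first, 17456 to 20282 (score 0.564), left 17455 bp free at the distal end, and the last, 22967188 to 22969148 (0.275), left 42396 bp free at the proximal end. Both were found in both replicates, whose own free ends were 17674 and 17463 bp on the distal side and 42592 and 42368 bp on the proximal side.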

How the data were processed

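Chromatin of Oregon-R embryos was fixed in 1.8% formaldehyde, per the labels' protocols. The authors deposited 3 lists of regions (1 per ChIP replicate, 1 for the combined replicate set), each row with a position, a type and a score; the deposited score is above 0 for enriched and below 0 for depleted regions, and its definition is not given in the sources used here. Coordinates are FlyBase release 5, per the file headers. The aligner Bowtie 0.12.7 appears in the submitters' processing notes. Which program called the regions, with what thresholds and with what use of the input is not given in the sources used here.

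Intervals were read as 1-based and inclusive. Overlap meant at least 1 bp. Regions were assigned to windows by midpoint, since no summit is given. Densities carry exact Poisson and shares exact (Clopper-Pearson) 95% intervals, covering counting of regions only. Both kinds of interval take regions as independent. Without read counts the depth is unknown. Two-sided exact binomial tests compared arm counts with arm length; with 2 ChIP replicates no test across samples was made. Calculations were tested on simulated data and used Python 3.11.15, numpy 2.4.6, scipy 1.17.1 and pandas 2.3.3.

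The arm, the 14 to 18 Mb interval, the thresholds and the rule for named regions (20 highest scores in both replicates, 10 widest, 5 closest pairs, 5 highest scores in neither replicate, long stretches, dense runs, arm ends, depleted regions) were chosen with earlier results of these data known. The gene table at hand refers to release 6, and no coordinate of it was used.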

Additional observations from a re-analysis of the deposited data

Results flagged for a closer look

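The combined list types 5 regions of 2L as depleted, a class that the comparisons above do not use. The whole combined list has 23 of them, so 2L holds 21.7%, beside 15.5% of the enriched regions, and nothing particular to 2L is read from the count. Scores were -0.00241 at 3778128 to 3779548, -0.0112 at 5733160 to 5734880, -0.0586 at 13144628 to 13146374, -0.0364 at 13922872 to 13924456 and -0.0218 at 20782414 to 20784180. Of the 5, 4 overlap a region that a replicate types as enriched: replicate 1 at 5733127 to 5734806 (score 0.105) and 13144736 to 13146180 (0.113), and replicate 2 at 13922942 to 13924540 (0.0878) and 20782377 to 20784198 (0.186). Neither replicate lists a depleted region on 2L. The lowest score of an enriched region on the arm was 0.00258. How the type was assigned was not tested.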

How the results depend on the processing

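The ratio of 2L to the other 4 large arms was below 1 under all 8 alternatives (0.794 to 0.874). Its exact p was under 0.05 in each, the larger values being 0.00065 to 0.0122. That test takes regions as independent, and the arm was chosen with earlier results known. These p-values therefore do not show that the call holds. Of 61 alternative values in all, 32 stayed within their limits and 29 moved. The limits differed between results, so these counts do not rank the results by firmness. A median width of 2442 bp (replicate 2) against 2387 bp counted as moved, whereas 14 runs (replicate 2) against 19 did not. Taking the higher-scoring 50% of a list gave 416 regions on 2L (345 and 359 in replicates 1 and 2). For the combined list this gave a median spacing of 17390 bp and a median width of 2719 bp. It also gave 15.1 Mb in stretches of at least 100 kb and 10.8 regions per Mb between 14 and 18 Mb. With the replicate lists cut in the same way, 82.0% of the 416 overlapped both. Against the full replicate lists, 195 of 195 regions of 2L in the highest score quartile and 220 of 221 in the next overlapped both. Using only regions found in both replicates gave a spacing of 12577 bp, a width of 2569 bp, and 10 runs with 60 regions. Median spacing between midpoints was 11245.5 bp, and edge to edge 8496 bp. Stretches numbered 122 at a minimum of 50 kb and 10 (3.02 Mb) at 200 kb. Runs numbered 8 (44 regions) with gaps up to 3000 bp and 40 (260 regions) up to 10000 bp. Leaving out either replicate gave shares found in the other of 82.6 to 85.6%, spacings of 12049.5 to 12056 bp, widths of 2401 to 2442 bp, 10 to 14 runs with 56 to 79 regions, and 5 to 6 regions in the sparsest window. Without replicate 2 there were 10 dense runs with 56 regions, against 19 with 111 in the combined list. In windows shifted by 500 kb the densest was 9500001 to 10500000 (66 regions) and the sparsest 17500001 to 18500000 (15). The cause was not tested where the setting itself does not remove regions or change the distance. No paired analysis was possible because the input samples have no region list here.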

Other observations

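Regions of 2L found in neither replicate followed a relation of score and width opposite to that of the arm. Over these 83 regions the narrower ones scored higher (Spearman's rho = -0.64), whereas over the 613 found in both replicates the wider ones did (rho = 0.65); both are descriptions over regions that share their libraries. The narrowest replicate region of any chromosome was 1302 bp wide, and 49 combined regions of 2L were narrower than that, 39 of them in neither replicate. Those 39 had a median score of 0.317 and a rho of -0.68, while the 44 wider ones in neither replicate had a median score of 0.178 and a rho of -0.19. Being found in a replicate went with both score and width, so this grouping is not independent of the relation it describes. The values were not computed for the other arms, and nothing particular to 2L is read from them.

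The 57 long stretches divide 2L into 58 groups of regions. A median group held 8 regions over 140 kb, and 4 groups were a single region. The largest, 7181072 to 8998646, had 79 regions over 1818 kb with no free stretch of 100 kb. The group 10198260 to 10544902 had 42 regions in 347 kb, and the most distal group, 17456 to 603486, had 42 in 586 kb.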
